A study of Mus musculus with 6 samples.

Results

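ATF4 and CHOP, the transcription factors at the centre of the integrated stress response, were followed at the level of their mRNA together with 8 genes that act directly with them. The set held 10 genes of the 24879 lines in the expression table, taken by gene symbol: Atf4, Ddit3 (which encodes CHOP), Trib3, Atf5, Cebpb, Cebpg, Ppp1r15a, Nupr1, Eif2ak3 and Eif2ak4. All 10 were measured and passed the filter on low values. A second line named Ddit3 was listed at 0 in every library and was not used.

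The cells were 661W, a single immortalised mouse line derived from retinal tumours of SV40 T antigen transgenic mice and described as cone photoreceptor cells. Light cultures received 2000 ± 100 lux of cold white fluorescent light during 24 h (3 libraries), and Dark cultures spent the same 24 h unlit (3 libraries). Both were grown in DMEM with fetal bovine serum. Values are in FPKM, a fragment count scaled to the length of the gene and the size of the library. They summed to 459198 to 471471 per Light library and 411186 to 434372 per Dark library. The depth behind each value is unknown, with read totals not given in the sources used here.

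Defining cone genes stood at or near 0. Arr3, Opn1mw, Pde6c and Cngb3 were at 0 in all 6 libraries, and 0 of 10 cone markers reached a mean of 1 FPKM, with sums of 0.95 to 1.37 FPKM in Light libraries and 0.95 to 2.10 in Dark libraries. Of the marker lists for rods, pigment epithelium, microglia and endothelium, 0 of 15 genes reached that mean. The mesenchymal genes Col1a1, Col1a2 and Pdgfra together gave 335 to 364 FPKM in Light libraries and 680 to 785 in Dark libraries, and the Müller glial list gave 34.6 to 36.3 FPKM in Light and 53.8 to 57.4 in Dark. Of the 4 Müller glial genes, Glul and Slc1a3 made up nearly all of that sum, while Rlbp1 and Aqp4 stood at or near 0. Whether a changing mixture of cell states takes part in the results was not tested. In bulk RNA, fewer cells of a type and less RNA per cell cannot be told apart.

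In the integrated stress response, kinases such as PERK (Eif2ak3, activated at the endoplasmic reticulum) and GCN2 (Eif2ak4, activated by uncharged tRNA) phosphorylate the initiation factor eIF2. General translation then falls, while the mRNA of ATF4 is translated more efficiently through its upstream open reading frames. ATF4 switches on genes of amino acid supply and further regulators, among them CHOP, and GADD34 (Ppp1r15a) closes the loop by bringing a phosphatase back to eIF2. Phosphorylation and translation were not measured here, only mRNA.

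The regulators below ATF4 are known to be switched on through a composite site, the C/EBP-ATF response element (CARE). The promoter windows of the 10 genes, from 250 bases before to 50 after each RefSeq start on GRCm38.p6, were therefore searched for TGATGNAA or its reverse complement TTNCATCA. There were 12 windows, since Atf5 and Eif2ak4 had more than 1 start. A match was found in 2 of them, Trib3 and Nupr1, where 3.97% of all 32851 windows in the table hold one. Sequence outside the windows was not searched, so a site further away, in Ddit3 or another member, would be missed. The cyclic AMP response element TGACGTCA, a palindrome to which ATF factors bind, was found in the Ppp1r15a window and in 1.79% of all windows. The 3 matches are shown with 11 bases on each side, in the direction of transcription, with the motif in capitals.
Trib3: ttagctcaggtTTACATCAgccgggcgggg
Nupr1: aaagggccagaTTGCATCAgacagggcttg
Ppp1r15a: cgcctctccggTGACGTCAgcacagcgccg
The Trib3 match lay at bases 15 to 22 of the RefSeq transcript (minus strand, chr2:152344039-152344046), just outside the exons annotated by GENCODE. In Nupr1 it lay at positions -110 to -103 from the RefSeq start (minus strand, chr7:126625573-126625580). There it fell inside GENCODE exons of a protein-coding Nupr1 transcript and of one with a retained intron. The Ppp1r15a match lay at positions -12 to -5 (minus strand, chr7:45526273-45526280). The endoplasmic reticulum stress element, CCAAT and CCACG parted by 9 bases of any kind on either strand, was found in 0 of the 12 windows and in 0.119% of all windows, and the NRF2 core TGACNNNGC, searched on both strands, in Cebpb and Ppp1r15a and in 12.4% of all windows.

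**Figure D1:**
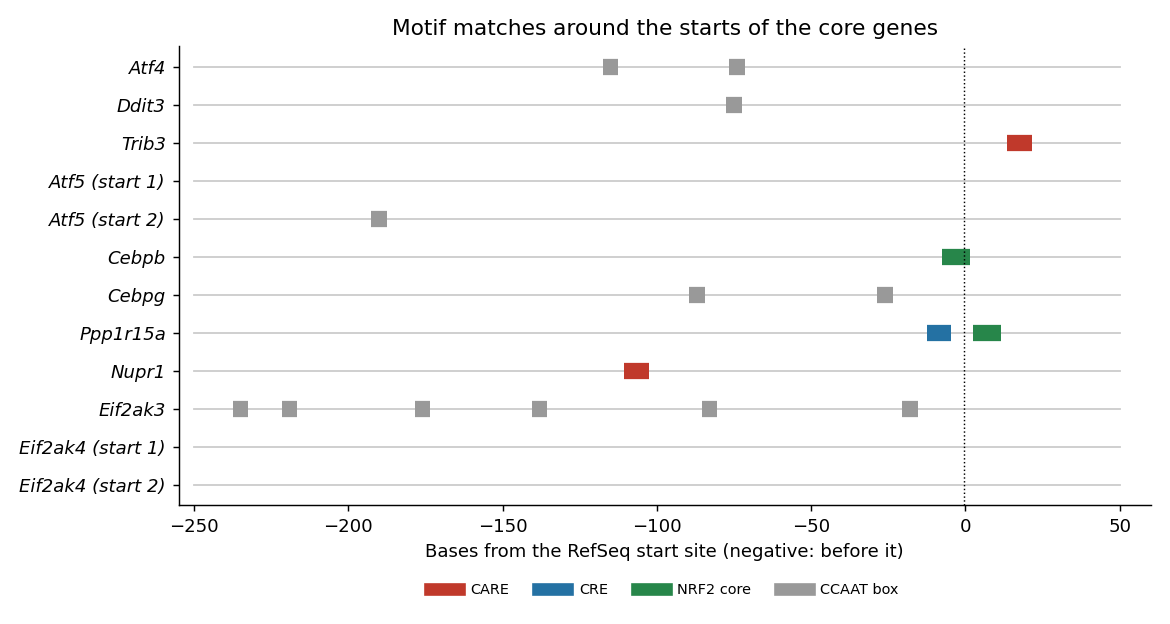
Motif matches in the 12 promoter windows of the 10 genes, plotted by distance in bases from the RefSeq start site (dotted line). Coloured blocks mark CARE, the cyclic AMP response element (CRE), the NRF2 core and the CCAAT box, and Eif2ak3 carries 6 CCAAT boxes while Trib3 and Nupr1 carry the CARE matches.

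CCAAT boxes, the sites of the factor NF-Y, were the commonest match, in 5 of the 12 windows and in 37.4% of all windows. Eif2ak3 held 6 of them, counted on both strands, and 26 of 32851 windows (0.0791%) held at least 6, a threshold chosen after the window was seen. The 250 bases before the Atf4 start (plus strand, chr15:80254934-80255183) and before the Eif2ak3 start (plus strand, chr6:70844265-70844514) are shown because Atf4 had the highest FPKM of the members, though not the largest change, and Eif2ak3 was the member that fell, with CCAAT boxes of either strand in capitals.
Atf4: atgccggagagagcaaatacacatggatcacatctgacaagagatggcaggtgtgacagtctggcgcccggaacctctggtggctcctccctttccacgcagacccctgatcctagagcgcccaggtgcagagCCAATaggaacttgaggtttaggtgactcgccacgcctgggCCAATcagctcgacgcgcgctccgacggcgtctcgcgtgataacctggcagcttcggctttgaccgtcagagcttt
Eif2ak3: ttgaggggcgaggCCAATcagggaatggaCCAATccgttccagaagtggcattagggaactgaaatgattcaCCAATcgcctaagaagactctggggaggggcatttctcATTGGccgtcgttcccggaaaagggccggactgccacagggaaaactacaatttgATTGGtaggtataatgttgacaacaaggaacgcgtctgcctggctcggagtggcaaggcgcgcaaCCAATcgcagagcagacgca
A match in these letters is a description of the sequence and was not tied to any measured binding.

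Of the 10 genes 6 rose in Light, against 19.2% of all 11068 genes tested, and 1 fell, against 16.4%. The members were chosen with earlier results of these data known, so these shares are a description and not a test. In either direction 35.6% of all genes passed. A gene is said to rise or fall where its adjusted p is under 0.05 by limma with Benjamini-Hochberg adjustment over all genes tested. Changes are Light minus Dark in log2(FPKM + 1), and the added 1 shrinks those of weakly expressed genes. The 6 were Atf4, Ddit3, Trib3, Atf5, Ppp1r15a and Nupr1, and the 1 that fell was the kinase gene Eif2ak3. The median change of the 10 was 0.88, and that of all genes tested was -0.01. Over all genes 2128 rose and 1810 fell, a split that became 1212 and 2910 when each library was brought to a common FPKM sum (rescaled totals), which moved the median of all genes to -0.14. The same 6 members rose on that scale. All Light libraries lay above all Dark libraries for 6 members (28.2% of all genes), all below for 2 members (24.4%), and the groups overlapped for Cebpb and Cebpg. Nothing in the labels says that the libraries of a group came from separate cultures, so the p-values reflect only how far these libraries scatter, and that scatter may be technical.

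**Figure D2:**
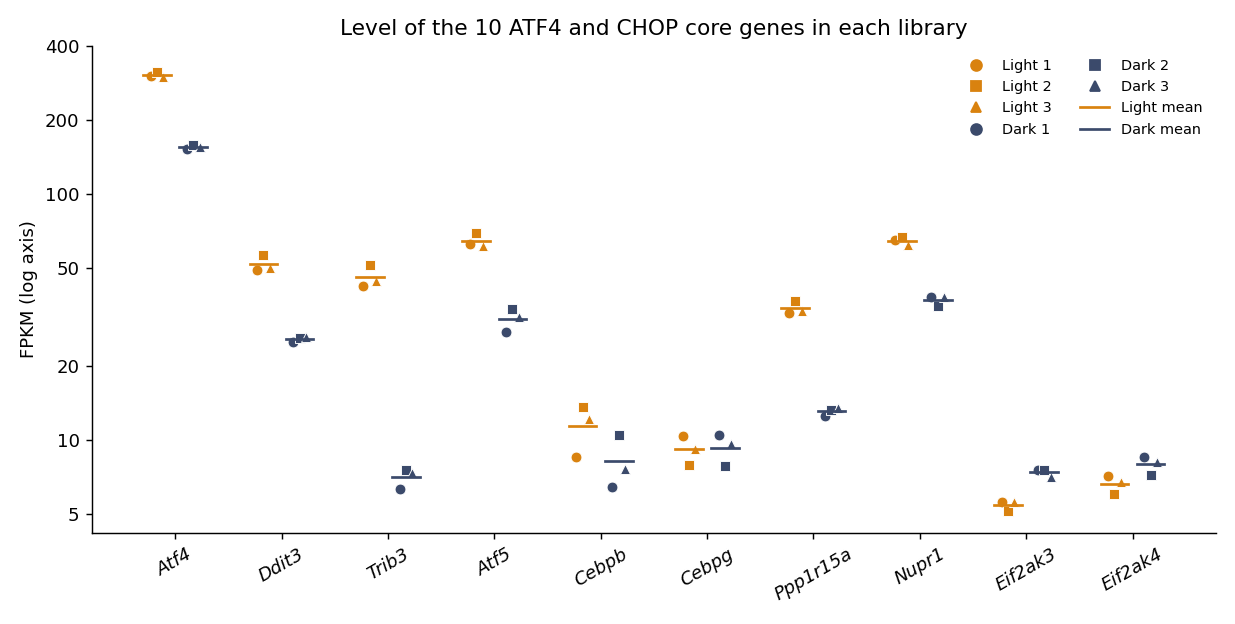
FPKM on a log axis of the 10 genes in each library, Light in orange and Dark in blue, with circles, squares and triangles for libraries 1, 2 and 3 and a line at each group mean. Atf4 stands above the other 9 genes in both groups, and Trib3 sits at 42.3 to 51.5 FPKM in Light and 6.31 to 7.52 in Dark.

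Atf4, the factor through which the response acts on transcription, was the most abundant of the set. It stood at 302, 314 and 300 FPKM in Light libraries 1 to 3 and at 152, 158 and 155 FPKM in Dark libraries 1 to 3. The 3 libraries of each group lay within a few percent of each other, and the groups were far apart. The log2 change was 0.97 ± 0.06 (SE; limma adjusted p = 0.000169), the 100th largest increase among the genes tested. The gene lies on chromosome 15 from 80255184 to 80257541 and none of its exons is shared with another annotated gene.

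Ddit3 encodes CHOP, a C/EBP family factor that pairs with other C/EBP proteins and is linked to cell death under prolonged stress. Its level was 49.2, 56.6 and 50.1 FPKM in Light libraries 1 to 3, and 25.0, 25.97 and 26.3 FPKM in Dark libraries 1 to 3. Light 2 was the highest of its group, and the groups did not overlap. The change was 0.98 ± 0.07 (limma adjusted p = 0.000327). Of the 1713 exonic bases of Ddit3 on chromosome 10 (127290774 to 127296288), 68 overlap the methionyl-tRNA synthetase gene Mars on the opposite strand, which stood at 67.4 to 75.0 FPKM in Light and 43.7 to 49.4 in Dark. A further 105 are shared on the same strand with the second Ddit3 gene, the line listed at 0. With the strand setting not given in the sources used here, reads in the bases shared with Mars cannot be assigned to either gene. For the 105 bases on the same strand, a strand setting would not separate the genes.

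Atf5, a stress factor of the ATF4 family that guides the mitochondrial stress response, rose by about the same amount. Its values were 62.6, 69.3 and 61.5 FPKM in Light libraries 1 to 3, against 27.3, 34.2 and 31.7 FPKM in Dark libraries 1 to 3. Dark 1 was the lowest of the Dark libraries, and every Light library exceeded every Dark library. The change was 1.03 ± 0.09 (limma adjusted p = 0.000649). On chromosome 7 (44812256 to 44816658) 82 of its 1993 exonic bases are shared with Nup62 on the opposite strand, at 62.2 to 69.8 FPKM in Light and 45.8 to 55.3 in Dark.

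Nupr1, a small chromatin-associated stress protein gene induced downstream of ATF4, stood at 64.8, 67.0 and 62.0 FPKM in Light libraries 1 to 3. The Dark libraries held 38.1, 35.1 and 38.1 FPKM. The spread within groups was small beside the gap between them, and the change was 0.78 ± 0.06 (limma adjusted p = 0.000462). This was the smallest increase among the 6 genes that rose.

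Trib3 and Ppp1r15a, the negative feedback genes, rose furthest of the 10. Trib3 encodes a pseudokinase that binds ATF4 and restrains its activity. It reached 42.3, 51.5 and 44.4 FPKM in Light libraries 1 to 3, against 6.31, 7.52 and 7.31 FPKM in Dark libraries 1 to 3. The ratio of the group means was 6.53, and the change on the log2 scale was 2.55 ± 0.10 (limma adjusted p = 3.06e-05), the 6th largest increase of all genes tested. Light 2 and Dark 2 were the highest of their groups.

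Ppp1r15a encodes GADD34, the stress-induced subunit that directs protein phosphatase 1 to eIF2. It measured 32.8, 36.7 and 33.5 FPKM in Light libraries 1 to 3, and 12.5, 13.3 and 13.4 FPKM in Dark libraries 1 to 3. No Light library came near the Dark range, and the change was 1.33 ± 0.07 (limma adjusted p = 0.000112), the 39th largest increase. Its constitutive counterpart Ppp1r15b averaged 22.6 ± 1.44 FPKM in Light and 23.8 ± 0.184 in Dark (SD, n = 3 each), a change of -0.07 with a 95% interval of -0.23 to 0.08 (limma adjusted p = 0.396). In the Light libraries the inducible gene thus exceeded the constitutive one in FPKM, and in the Dark libraries the order was the other way.

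The C/EBP partners did not pass the test. Cebpb encodes C/EBPβ, which pairs with ATF4 and CHOP. It stood at 8.50, 13.6 and 12.1 FPKM in Light libraries 1 to 3, and at 6.42, 10.5 and 7.61 FPKM in Dark libraries 1 to 3. Library 1 was the lowest and library 2 the highest in both groups, and Dark 2 lay above Light 1. The change was 0.44 with a 95% interval of -0.05 to 0.92 (limma adjusted p = 0.128). Without Light 1 it was 0.62 (adjusted p = 0.04895) and without Dark 2 it was 0.61 (adjusted p = 0.0333), so either library decides the call. Cebpb also passed with the library number added to the model (limma adjusted p = 0.000509). Cebpb is a single-exon gene on chromosome 2 (167688915 to 167690418) with a GC content of 67.2%, the highest of the 10, and 312 of its 1504 bases are shared with Tmem189 on the opposite strand, at 27.97 to 28.5 FPKM in Light and 23.6 to 27.4 in Dark.

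Cebpg encodes C/EBPγ, a C/EBP protein that lacks an activation domain and pairs with ATF4. Its values were 10.4, 7.90 and 9.16 FPKM in Light libraries 1 to 3, against 10.5, 7.81 and 9.60 FPKM in Dark libraries 1 to 3. Here library 1 was the highest and library 2 the lowest in both groups, the reverse of Cebpb, and the groups overlapped almost fully. The change was -0.02 with an interval of -0.32 to 0.28 (limma adjusted p = 0.910). The GC content of the longest Cebpg transcript, 43.3%, was the lowest of the 10. With each library's trend on transcript length and GC content removed the change was 0.27 (limma adjusted p = 0.0105), and the same correction left Cebpb at 0.23 (adjusted p = 0.133). Quantile normalization (0.080) and median centring (0.035) also put Cebpg on the positive side of 0, as did leaving out Light 2 (0.071), Dark 1 (0.063) or Dark 3 (0.0059).

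**Figure D3:**
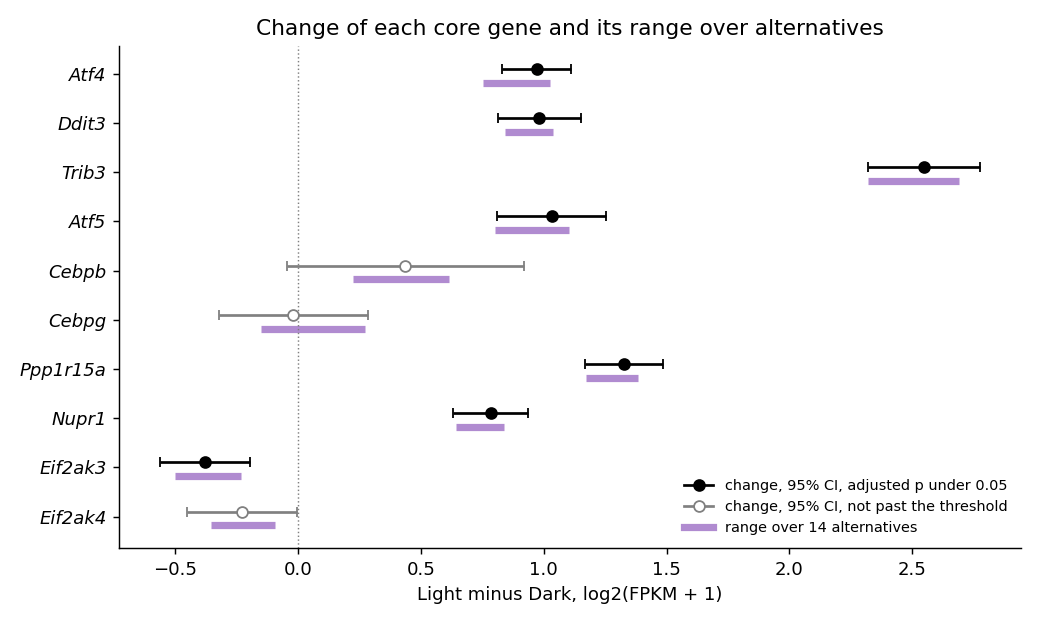
Light minus Dark change on the log2(FPKM + 1) scale of each gene (point) with its 95% confidence interval, filled where the adjusted p is under 0.05; the bar beneath gives the range over 14 alternative analyses. The 6 genes that rose keep changes of 0.64 or more in every alternative, while the bar of Cebpg spans 0.

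Of the kinase genes above eIF2, Eif2ak3 fell and Eif2ak4 did not pass the test. Eif2ak3, the gene of PERK, stood at 5.58, 5.15 and 5.60 FPKM in Light libraries 1 to 3, and at 7.51, 7.56 and 7.05 FPKM in Dark libraries 1 to 3. Every Light library lay below every Dark library, and the change was -0.38 ± 0.08 (limma adjusted p = 0.0131). The call was lost without Light 2 (-0.34, adjusted p = 0.0569), without Light 3 (-0.39, 0.0541) and with quantile normalization (-0.23, 0.0679). A predicted gene, Gm43292, shares 485 of its 6026 exonic bases on the opposite strand.

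Eif2ak4, the gene of GCN2, had 7.14, 6.04 and 6.72 FPKM in Light libraries 1 to 3, and 8.53, 7.18 and 8.12 FPKM in Dark libraries 1 to 3. The groups lay close together without overlapping. The change was -0.23 with a 95% interval of -0.45 to -0.0037 (limma adjusted p = 0.0961). It passed the threshold without Dark 2 (-0.29, adjusted p = 0.0400), with rescaled totals (-0.35, 0.0426) and with the library number added to the model (-0.23, 0.0174).

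Ordered by FPKM, the 10 genes kept Atf4 at the top in both groups while Trib3 changed place. In Light the order of the means was Atf4, Nupr1, Atf5, Ddit3, Trib3, Ppp1r15a, Cebpb, Cebpg, Eif2ak4 and Eif2ak3. Nupr1 and Atf5 overlapped in their libraries, as did Ddit3 and Trib3, and Cebpb and Cebpg. In Dark, Trib3 came last, after Atf4, Nupr1, Atf5, Ddit3, Ppp1r15a, Cebpg, Cebpb, Eif2ak4 and Eif2ak3, and from Cebpg down each gene overlapped the next.

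Dividing each gene by Atf4 within the same library removes any factor common to that library. Ddit3 made up 16.3%, 18.0% and 16.7% of the Atf4 level in Light libraries 1 to 3, against 16.4%, 16.4% and 16.9% in Dark libraries 1 to 3. Ddit3 therefore kept nearly the same proportion to Atf4 in both groups. A fit of each gene relative to Atf4, on log2(FPKM + 1) minus the Atf4 value, gave a difference of 0.01 with a 95% interval of -0.13 to 0.15 (limma adjusted p = 0.856). For Atf5 the difference was 0.06 with an interval of -0.12 to 0.25 (adjusted p = 0.458).

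Trib3 made up 13.98%, 16.4% and 14.8% of Atf4 in Light libraries 1 to 3, and 4.14%, 4.75% and 4.71% in Dark libraries 1 to 3. It rose more than Atf4 by 1.58 ± 0.08 (limma adjusted p = 7.94e-06). Ppp1r15a made up 10.8%, 11.7% and 11.2% of Atf4 in Light, against 8.22%, 8.38% and 8.65% in Dark, and rose more by 0.36 ± 0.06 (adjusted p = 0.000591). In that direction 50 of 11067 other genes (0.452%) passed, and 97.7% passed in the other (98.1% in all). Nupr1 rose less than Atf4 by this test (-0.19 ± 0.06, adjusted p = 0.0220), a call lost without Light 3 (-0.17, 0.0766), Dark 1 (-0.15, 0.0667) or Dark 3 (-0.17, 0.0783). Cebpb differed from Atf4 by -0.54 (adjusted p = 0.0298), lost without Light 1 (-0.36, 0.0842), Dark 2 (-0.38, 0.0795) or Dark 3 (-0.57, 0.0561) and with a pseudocount of 0.1 (-0.50, 0.0558). The differences of Cebpg (-0.99), Eif2ak4 (-1.20) and Eif2ak3 (-1.35) had adjusted p-values of at most 0.000334.

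**Figure D4:**
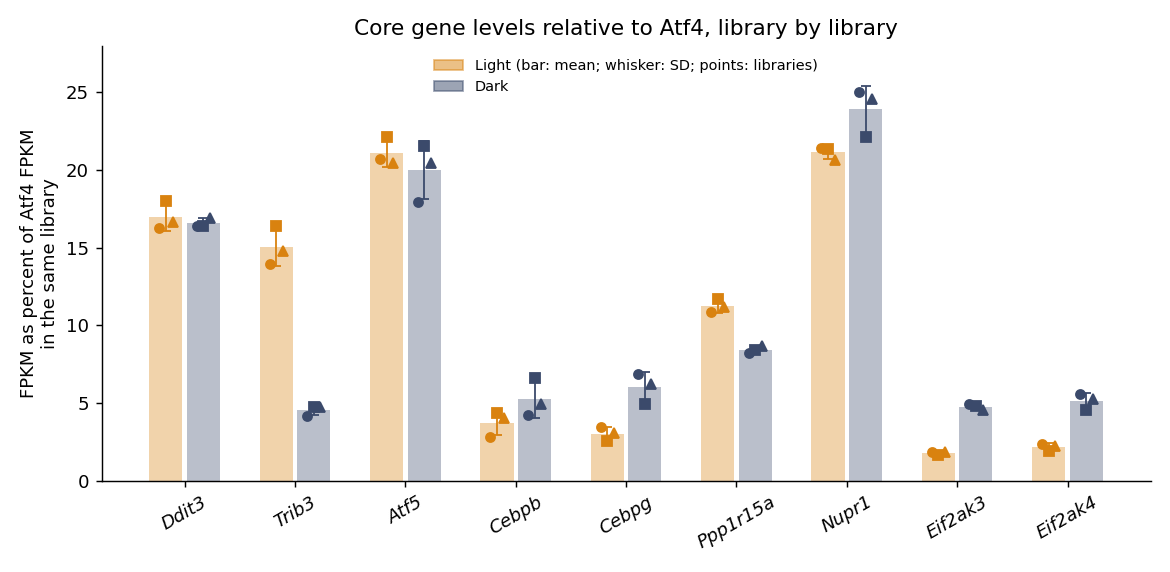
FPKM of each gene as a percent of the Atf4 FPKM in the same library, Light in orange and Dark in blue, with bars for means, whiskers for SD and points for libraries (circle 1, square 2, triangle 3). Ddit3 and Atf5 stand at like heights in both groups, and Trib3 reaches 13.98% to 16.4% in Light against 4.14% to 4.75% in Dark. Both kinase genes are lower in Light, and 97.7% of all genes tested relative to Atf4 were called lower in that fit.

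Among 1340 named genes averaging 5 FPKM or more with an absolute change of at least 0.5, those whose profile over the 6 libraries was most like Atf4 were Nqo1 (Pearson r = 0.9999), Ier3 (0.9997) and Gsta4 (0.9997). For Ddit3 they were Sesn2 (0.9991), Ppp1r15a (0.9985) and Chac1 (0.9982). These values describe 6 points that fall into 2 groups, so genes that differ between the groups reach high values readily, and all points share the scaling of their library. Sesn2, a stress-induced inhibitor of growth signalling, stood at 13.8, 16.5 and 14.8 FPKM in Light libraries 1 to 3 and 6.77, 6.96 and 7.23 FPKM in Dark, in the same order as Ddit3 within each group.

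Genes around the core were taken from 8 lists. Among the other eIF2 kinases and their regulators, 0 of 6 rose by limma, also 0 at an unadjusted p under 0.05, and 2 fell, with a median of -0.04. Of all genes tested 19.2% rose and 16.4% fell, about 1 gene each way in a list of 6. Eif2ak2, the double-stranded RNA kinase PKR, averaged 10.99 ± 1.56 FPKM in Light and 19.3 ± 6.13 in Dark (SD, n = 3 each), a change of -0.72 (limma adjusted p = 0.0392). Dnajc3, which encodes an inhibitor of PERK and PKR, averaged 13.3 ± 1.78 FPKM in Light and 22.9 ± 4.88 in Dark (-0.72, adjusted p = 0.0159). Both calls were lost without Light 2 (-0.62, 0.133 and -0.64, 0.0666), Light 3 (-0.73, 0.107 and -0.71, 0.0637) or Dark 3 (-0.71, 0.111 and -0.72, 0.0619), and that of Eif2ak2 also without Dark 1 (-0.51, 0.0572). The haem-regulated kinase gene Eif2ak1 stood at 0.03, the GCN2 activator gene Gcn1l1 at 0.14, the mitochondrial stress protease gene Oma1 at 0.14 and the PKR activator gene Prkra at -0.10, with adjusted p-values of 0.186 to 0.759. Gcn1l1 passed without Dark 2 (0.22, adjusted p = 0.0339). With the trend on length and GC removed the change of Dnajc3 was -0.40 (adjusted p = 0.00267), Gcn1l1 rose (0.31, 0.00751) and Prkra fell (-0.21, 0.0134), Prkra also with rescaled totals (-0.24, 0.0199).

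Of 12 genes of eIF2, its exchange factor eIF2B and the phosphatase that acts on it, 4 rose and 0 fell by limma, with a median of 0.05, and 2 were lower at an unadjusted p under 0.05. The shares over all genes were 19.2% higher and 16.4% lower. The 4 were all eIF2B subunit genes, the complex that phosphorylated eIF2 inhibits. Eif2b2 changed by 0.53 (limma adjusted p = 0.00983), Eif2b5 by 0.40 (0.0358) and Eif2b3 by 0.35 (0.0106), and the fourth was Eif2b4 (0.32, 0.0405). Fewer of the 12 rose without Light 1 (3), Light 2 (1), Light 3 (0), Dark 1 (2) or Dark 3 (2). Eif2b4 was not called in any of these fits. Eif2b2 missed the threshold without Light 3 (0.50, adjusted p = 0.0509), Eif2b3 without Light 2 (0.33, 0.0504) and Light 3 (0.34, 0.0560), and Eif2b5 without Light 2 (0.35, 0.126), Light 3 (0.37, 0.116), Dark 1 (0.30, 0.0647) and Dark 3 (0.39, 0.110). Without Dark 2, 3 of the 12 fell. Removing the trend on length and GC gave 0.28 for Eif2b2 (adjusted p = 0.0127) and 0.24 for Eif2b5 (0.0477), and rescaled totals gave 0.26 for Eif2b5 (0.0769) and 0.21 for Eif2b3 (0.0481).

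In the list of other ATF, C/EBP and Tribbles genes, 2 of 11 tested rose and 3 fell, with a median of -0.01. These counts lay near the shares over all genes, 19.2% higher and 16.4% lower. Atf3, a stress-induced repressor that is itself a target of ATF4, stood at 9.04, 10.6 and 9.26 FPKM in Light libraries 1 to 3, and 2.69, 3.60 and 3.35 FPKM in Dark. It changed by 1.34 ± 0.11 (limma adjusted p = 0.000492), close to Ppp1r15a in size. Atf6b changed by 0.34 (adjusted p = 0.0244) and was not called without Light 2 (0.31, 0.0956), Light 3 (0.36, 0.0771) or Dark 3 (0.34, 0.0863) and with rescaled totals (0.20, 0.0572). Atf2 fell by 0.65 (adjusted p = 0.0436) and Atf7 fell by 0.45 (0.0211), both calls lost without Light 2 (-0.53, 0.145 and -0.34, 0.0610), Light 3 (-0.69, 0.104 and -0.49, 0.0616) or Dark 3 (-0.65, 0.117 and -0.46, 0.0742). That of Atf2 was also lost without Light 1 (-0.74, 0.0524) or Dark 1 (-0.46, 0.0730). Once the trend on length and GC was removed, Atf7 stood at -0.15 (adjusted p = 0.0920), Atf2 at -0.29 (0.02255) and Atf6b at 0.17 (0.0278).

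**Figure D5:**
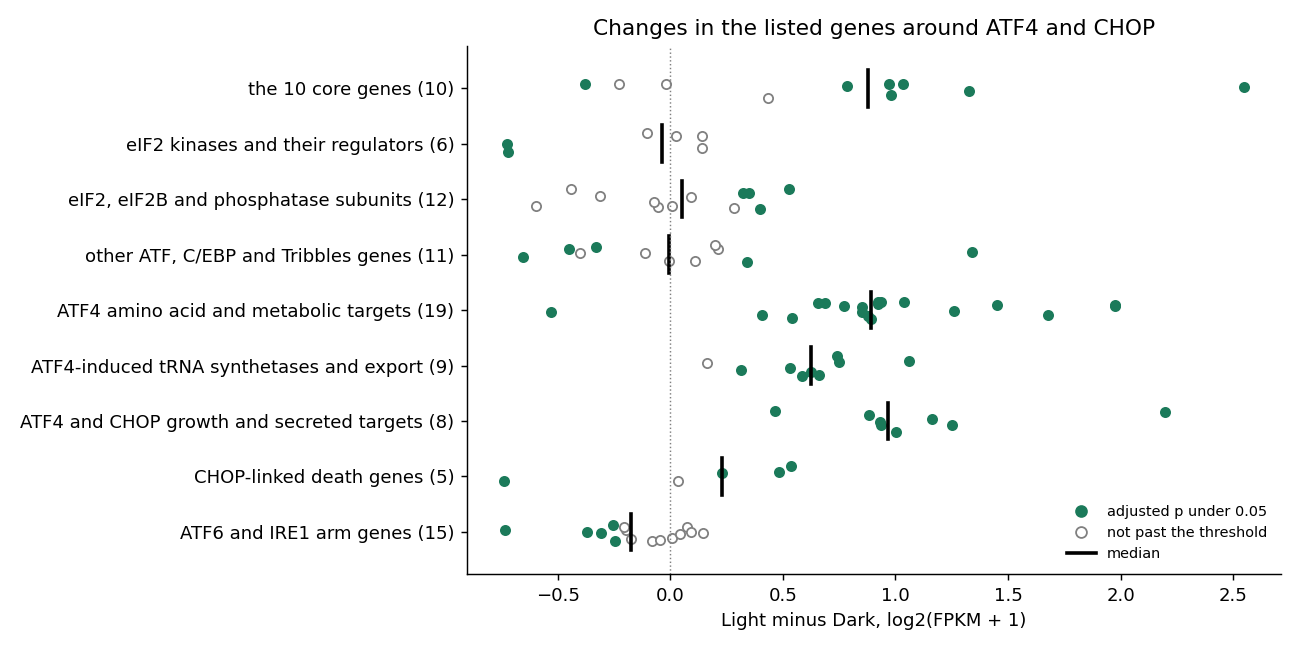
Light minus Dark change on the log2(FPKM + 1) scale of every tested gene of the core and of 8 lists, one point per gene, filled where the adjusted p is under 0.05, with a vertical bar at each median and the number of genes in brackets. The lists of ATF4 targets lie mostly to the right of 0 (medians 0.63 to 0.97), and the list of ATF6 and IRE1 arm genes lies around -0.17.

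The known targets below the core rose almost throughout, against 19.2% of all genes. Of 19 amino acid and metabolic targets of ATF4, 18 rose and 1 fell, with a median of 0.89. The glycine transporter gene Slc6a9 averaged 21.5 ± 2.51 FPKM in Light and 4.72 ± 0.656 in Dark (SD, n = 3 each), a change of 1.98 (limma adjusted p = 0.000132). Chac1, which breaks down glutathione, changed by 1.97 (adjusted p = 7.53e-05), and Cth, the cysteine-forming cystathionine lyase gene, by 1.68 (0.000566). The exception was the amino acid transporter gene Slc38a2, which fell by 0.53 (adjusted p = 0.0232). Its call was lost without Light 2 (-0.43, 0.0832), Light 3 (-0.54, 0.0774) or Dark 3 (-0.56, 0.0705), and it stayed lower in all of these. With the trend on length and GC removed its change was -0.19 (adjusted p = 0.0200). Some of these targets were already known to differ in these data when the list was made.

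Of 9 tRNA charging and export genes 8 rose, with a median of 0.63, beside 19.2% of all genes tested. The largest increases were those of the synthetase genes Sars (1.06, limma adjusted p = 0.000630), Aars (0.75, 0.00215) and Cars (0.74, 0.00114). All 8 tested growth and secreted targets rose, with a median of 0.97. Without Light 2, Light 3 or Dark 3, 7 of these were called, and without Light 3 or Dark 3, 7 tRNA genes were. Gdf15, a stress hormone gene, averaged 14.1 ± 1.43 FPKM in Light and 2.30 ± 0.340 in Dark (SD, n = 3 each), a change of 2.20 (adjusted p = 0.000109). Eif4ebp1, which encodes a repressor of cap-dependent translation, changed by 1.25 (0.000769) and the stanniocalcin gene Stc2, low at 0.293 FPKM in Dark, by 1.16 (0.000699), or by 2.34 with a pseudocount of 0.1. Adm2 was too low to be tested. These lists too were made with earlier results of these data known.

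Genes linked to death downstream of CHOP did not move together. Of 5 genes 3 rose and 1 fell, with a median of 0.23, beside 19.2% higher and 16.4% lower over all genes. Bcl2l11, the gene of the death activator BIM, stood at 5.57, 5.07 and 4.94 FPKM in Light libraries 1 to 3, against 10.7, 8.61 and 8.79 FPKM in Dark, and fell by 0.74 (limma adjusted p = 0.00335). The other activator, the PUMA gene Bbc3, rose by 0.53 (adjusted p = 0.0199), the oxidase gene Ero1l by 0.48 (0.0222) and the death receptor gene Tnfrsf10b by 0.23 (0.0494). All 3 of these calls were lost without Light 2, Light 3 or Dark 3, where Bbc3 stood at 0.42 to 0.56 (adjusted p = 0.0637 to 0.0692), Ero1l at 0.46 to 0.53 (0.0590 to 0.0821) and Tnfrsf10b at 0.20 to 0.26 (0.111 to 0.160). Ero1l and Tnfrsf10b were also lost without Light 1 (0.42, 0.0543 and 0.21, 0.118) and with rescaled totals (0.34, 0.0863 and 0.10, 0.268), and Tnfrsf10b without Dark 1 (0.21, 0.123). With the trend on length and GC removed Bbc3 stood at 0.33 (adjusted p = 0.0238) and Ero1l at 0.82 (5.08e-05). Bcl2, the survival gene that CHOP is known to repress, stood at 0.03 (adjusted p = 0.786). It rose with the trend on length and GC removed (0.38, 0.00782), and its change was negative with rescaled totals (-0.10, adjusted p = 0.444) and without Light 1 (-0.02) or Dark 2 (-0.03).

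The listed genes of the parallel arms of the unfolded protein response, run by ATF6 and IRE1, did not rise with Atf4. Activity of these arms was not measured. Of 15 genes 0 rose by limma, also 0 at an unadjusted p under 0.05, and 5 fell, with a median of -0.17. Over all genes 19.2% rose and 16.4% fell. Each gene was placed in a single list, and Herpud1, counted with the growth and secreted targets, rose by 0.88 (limma adjusted p = 0.000542). Hsp90b1, the chaperone gene of the endoplasmic reticulum, averaged 187 ± 23.4 FPKM in Light and 315 ± 74.4 in Dark (SD, n = 3 each), a change of -0.73 (limma adjusted p = 0.0204). The disulphide isomerase gene Pdia4 fell by 0.37 (adjusted p = 0.00997). Hsp90b1 was no longer called without Light 2 (-0.65, 0.0825), Light 3 (-0.73, 0.0743) or Dark 3 (-0.73, 0.0722), and Pdia4 without Light 3 (-0.35, 0.0567). The number that fell was 3 without Light 1, 1 without Light 2, 1 without Light 3, 3 without Dark 1 and 1 without Dark 3. Without Dark 2, 7 fell and 1 rose.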

How the data were processed

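Libraries made with an mRNA kit from total RNA of 661W cells, 3 Light and 3 Dark by their titles, were compared. The submitters' processing notes name HISAT2 and mm10. The deposited values are FPKM for each gene, in a series table equal to the 6 per-library files. A counting program, annotation and depth were not given in the sources used here. Low values showed no common step between libraries (at most 0.5% of 2573 to 2971 low genes shared a ratio), so reads could not be recovered.

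The members and lists were chosen with earlier results of these data known. Genes averaging 1 FPKM or more were tested on log2(FPKM + 1) with limma 3.58.1 in R 4.3.3 (trend and robust eBayes, 2-sided, group as the only term), and again relative to Atf4. Alternatives were no filter, a mean of at least 5 FPKM, a pseudocount of 0.1, quantile normalization, median centring, rescaled totals, removal of the length and GC trend, a replicate block and leaving out each library. The procedure was tested on simulated data with independent noise in each gene, which held no deviations shared across a library. Named were all 10 members, every gene of lists of at most 6, up to 3 rising and 2 falling called genes of longer lists, and the 3 most alike to Atf4 and to Ddit3. Eif2b4, Herpud1, Ppp1r15b and overlapping genes were named after their values were seen. Coordinates, length and GC content are those of GENCODE M21, promoters those of RefSeq on GRCm38.p6.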

Additional observations from a re-analysis of the deposited data

How the results depend on the processing

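The 6 risers passed in all 14 alternatives. Adjusted p-values there reached at most 0.00637. Leaving out 1 library gave 6 to 7 members higher and 0 to 2 lower, 1228 to 5874 genes called, 693 to 2990 higher and 533 to 2884 lower, and 10788 to 10861 genes that changed relative to Atf4. In the same fits 0 to 1 eIF2 kinase genes rose and 0 to 2 fell, 0 to 5 eIF2 and eIF2B genes rose and 0 to 3 fell, 1 to 2 other ATF, C/EBP and Tribbles genes rose and 0 to 3 fell, 17 to 18 metabolic targets rose and 0 to 1 fell, 0 to 3 death genes rose, and 0 to 1 ATF6 and IRE1 arm genes rose and 1 to 7 fell.

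With no filter on low values 2606 genes were called and 1109 fell, 1 kinase gene fell, 2 eIF2 and eIF2B genes rose, 1 other ATF gene rose and 0 fell, 0 metabolic targets fell, 1 death gene rose, 2 arm genes fell, and 19059 genes, of more tested, changed relative to Atf4. Quantile normalization left 0 members lower and 2 eIF2 and eIF2B genes higher, and median centring 3 arm genes lower. With rescaled totals 1212 genes rose and 2910 fell, 2 members fell, 2 eIF2 and eIF2B genes rose and 1 fell, 1 other ATF gene and 1 death gene rose, and 9 arm genes fell. Removing the length and GC trend gave 1 kinase gene higher, 4 other ATF genes higher, and 1 arm gene higher and 8 lower.

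Same-numbered libraries deviated together for numbers 1 and 2 (Pearson r = 0.687 and 0.641 over 11068 genes) but not 3 (-0.089). Libraries 1 and 2 lay at opposite ends (Light 1 with Dark 2, r = -0.681), with library 3 between them. The low value for number 3 therefore does not decide whether the samples were paired. The labels do not give a pairing, and the main fit used none. With the replicate number as a block 6690 genes were called, 3287 higher and 3403 lower. Under the block Cebpb (adjusted p = 0.000509) and Eif2ak4 (0.0174) passed, 2 members fell, 1 kinase gene rose, 3 eIF2 and eIF2B genes fell, 4 other ATF genes rose and 8 arm genes fell.

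Values that changed sign were those of Cebpg (0.080 with quantile normalization, 0.035 with median centring, 0.27 with the length and GC trend removed, -0.13 to 0.071 leaving out 1 library), Eif2ak1 (-0.11 with rescaled totals, -0.0063 to 0.056 leaving out 1 library) and Bcl2 (-0.10 with rescaled totals, -0.030 to 0.088 leaving out 1 library). Relative to Atf4, leaving out 1 library gave -0.0315 to 0.042 for Ddit3 and -0.011 to 0.12 for Atf5. The causes were not tested. With 3 libraries a group and unknown depth, small changes of genes at a few FPKM may have been missed. Some were called, such as that of Eif2ak3 (-0.38, limma adjusted p = 0.0131), a call lost in 3 of 14 alternatives.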
